A study of Mus musculus with 16 samples.

Results

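The comparison described here is the PTHrP1-36 treatment by gravity interaction in wild-type (Pthrp+/+) trabecular osteoblasts (TOs). It is the treated-minus-untreated difference at 0g minus the same difference at 1g, on the log2 scale. A positive value means that treatment moved a gene further up, or less far down, at 0g than at 1g. The 8 arrays labelled Pthrp+/+ were used, out of 16 arrays in the series, in 4 groups of 2 arrays. The interaction was computed for each of the 10438 named genes detected on at least 2 of the 16 arrays (15279 probes).

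The 4 groups shared the C57BL/6 background, the Pthrp+/+ genotype and the age of the donors, which were embryos collected 1 day before birth. The cells were passaged primary cells grown out of bone pieces. The labels name the tibia in one field and the femur in another, and the methods of the study name the femur. The cells had first been attached to microcarriers over several days, at a lower temperature than later. All cultures then spent 6 days at 0g or 1g on these carriers. The medium contained ascorbic acid, glycerophosphate and dexamethasone. The 0g cultures rotated in a horizontal vessel that kept the carriers in free fall, and the 1g cultures stood still in agarose-coated dishes, so that gravity, rotation and vessel cannot be told apart. Treated cultures received 10 nM PTHrP1-36 for 2 h each day and then fresh medium, whereas untreated cultures received only the daily change of medium. No source states that the replicates are different animals, and the spread behind each p-value may thus be that of repeated cultures. The methods place treated and untreated 0g chambers on 1 rotation axis, but no source says which replicate numbers shared a run, and the arrays were analysed unpaired.

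Parathyroid hormone-related peptide is a locally made relative of parathyroid hormone. Its amino-terminal part, present in PTHrP1-36, binds the receptor PTH1R on osteoblasts, which raises cyclic AMP and activates protein kinase A and, in turn, transcription factors of the CREB and AP-1 families. Short daily exposures are known to favour bone formation, and continuous exposure favours bone resorption through the osteoclast regulators RANKL and osteoprotegerin.

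The 8 arrays each detected 12908 to 13560 of 25697 probes, and replicate arrays correlated with r of 0.9926 (0g untreated) to 0.9971 over the tested probes. Of the osteoblast markers listed for the check, 7 of the 8 named on the array were detected; Dmp1, a marker of osteocytes, was not. All 8 macrophage markers named on the array were detected too. Of the markers of other cell types, 2 of 4 were detected for chondrocytes, 2 of 4 for skeletal muscle, 2 of 3 for tendon, 1 of 3 for adipocytes, 1 of 4 for osteoclasts, 1 of 4 for endothelium and 0 of 2 for erythroid cells. In these bulk samples fewer cells of a type and less RNA per cell cannot be told apart. Levels are log2 normalized signals, in which a step of 1 is a doubling, and levels of different genes were not set against each other.

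PTHrP1-36 acted differently at 0g and at 1g for 358 of the 10438 genes (3.43%), of which 257 had a higher interaction (2.46%) and 101 a lower one (0.968%). The test was limma's moderated test with Benjamini-Hochberg adjustment over all tested probes, and a gene was counted when any of its probes had an adjusted p under 0.05. At an unadjusted p under 0.05, 1669 genes passed, 894 of them higher and 777 lower, with 2 in both counts through different probes. The median interaction over all genes was -0.02. The treated-minus-untreated differences of all 358 genes did not overlap between 0g and 1g; this also held for 34.8% of all genes tested. The count depended on single arrays. It was 154 and 150 without 1 or the other treated 0g array, 166 and 177 without an untreated 1g array, 167 and 151 without a treated 1g array, 272 without the untreated 0g replicate 1 and 409 without the untreated 0g replicate 2.

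In the main fit, which weights all arrays alike, most of the interaction came from the 0g cultures. At 0g the peptide changed 938 genes (8.99%), of which 561 rose (5.37%) and 377 fell (3.61%). At 1g it changed 83 genes (0.795%), of which 22 rose (0.211%) and 61 fell (0.584%). The gap depended on the weighting of the arrays. With array weights estimated from their spread, 735 genes passed at 0g and 374 at 1g. Those weights were 0.512 for the untreated 0g arrays and 1.18 to 1.81 for the other Pthrp+/+ arrays. Of the 358 interaction genes, 267 passed the treatment test at 0g alone, 25 at 1g alone, 22 at both with opposite signs, 2 at both with the same sign and 42 at neither. The estimated effects of treatment had opposite signs at 0g and 1g for 283 genes (79.1%, against 41.4% of all genes), and the effect at 0g was the larger in size for 275 (76.8% against 59.7%). The group whose mean lay farthest from those of the other groups was 0g untreated for 267 genes (74.6% against 42.7%) and 1g untreated for 78 (21.8% against 24.2%). These shares describe the chosen genes only, since the same 4 group means chose them and a difference of effects favours opposite signs.

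The interaction also reads as a difference in the gravity effect with and without the peptide, computed from the same arrays. Gravity changed 2971 genes in untreated cultures (28.5%), with 14.3% higher and 14.2% lower at 0g, and 915 in treated ones (8.77%), with 3.86% higher and 4.91% lower. With array weights these counts were 2400 and 2232. Among the 358 interaction genes, 351 passed the gravity test untreated and 163 treated, and the gravity difference was the smaller in treated cultures for 345 (96.4%). The last share was 67% over all genes, and the interaction that chose the genes is the difference of those 2 gravity effects. The 257 genes with a higher interaction had a median gravity difference (0g minus 1g) of -1.27 untreated and -0.37 treated, a median treatment effect of 0.66 at 0g and -0.24 at 1g, and a median interaction of 0.93. The 101 genes with a lower interaction had medians of 1.14 and 0.33 for gravity, -0.60 and 0.21 for treatment, and -0.82 for the interaction. Because the contrasts share arrays, these medians describe 1 pattern and do not support each other. The plot of treatment at 0g against treatment at 1g shows the spread of both effects.

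**Figure D1:**
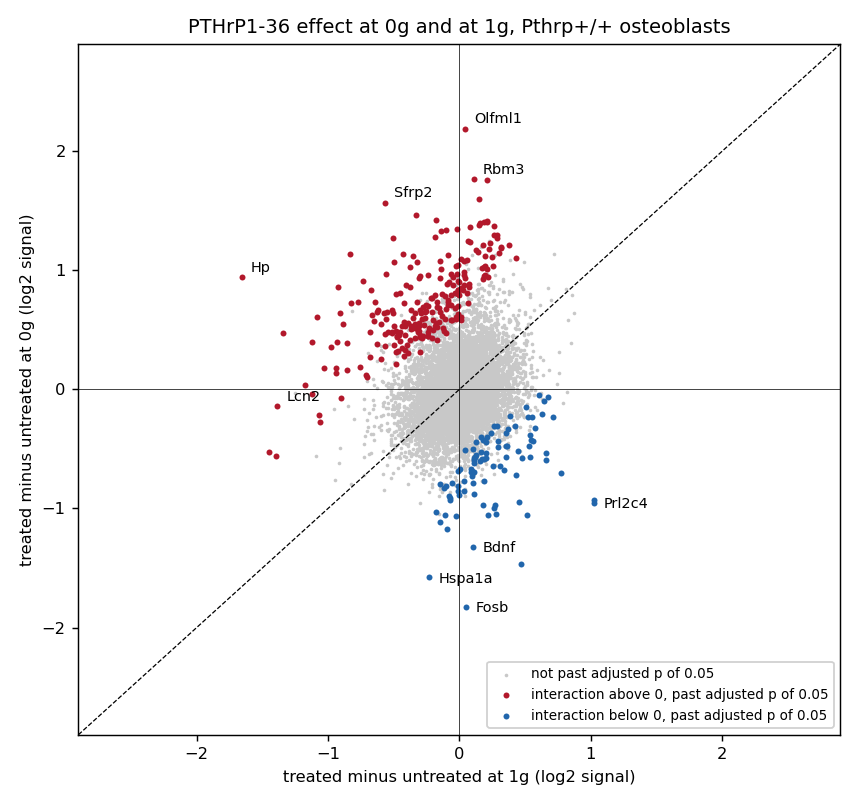
Effect of PTHrP1-36 (log2 treated minus untreated) at 1g on the horizontal axis and at 0g on the vertical axis, 1 point per gene (its probe of highest mean). Red and blue points have an interaction above and below 0 with an adjusted p under 0.05, grey points do not pass, and the dashed line marks equal effects; the coloured points spread mainly along the vertical axis, where 938 genes passed, against 83 along the horizontal axis.

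The receptor gene did not pass. Pth1r, the receptor for the peptide, had signals of 6.21 and 6.21 untreated and 6.28 and 6.12 treated at 0g, and 6.49 and 6.36 untreated and 6.50 and 6.07 treated at 1g. The groups overlapped, and the interaction was 0.13 ± 0.29 (SE, adjusted p = 0.942, limma). Pthlh, the gene of PTHrP itself, had no probe that passed the detection filter.

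The 12 largest positive interactions included several secreted proteins, some of them lowered by treatment at 1g as well as raised at 0g. Hp, haptoglobin, which binds free haemoglobin, had the largest value. Its signal was 5.76 and 6.24 untreated and 6.91 and 6.98 treated at 0g, against 9.91 and 9.87 untreated and 8.11 and 8.36 treated at 1g. Treatment thus moved Hp towards the middle from both ends, and the 4 groups did not overlap. The interaction was 2.60 ± 0.20 (adjusted p = 5.19e-05), from 0.94 at 0g and -1.66 at 1g.

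Igfbp3, which carries insulin-like growth factors, had the same form. Its signal was 6.55 and 6.36 untreated and 7.21 and 7.42 treated at 0g, and 9.15 and 8.92 untreated and 8.05 and 8.17 treated at 1g, an interaction of 1.78 ± 0.21 (adjusted p = 0.000458). Clu, the extracellular chaperone clusterin, had an interaction of 1.81 ± 0.15 (adjusted p = 5.19e-05), mostly from the 1g side, where treatment lowered it from 10.75 and 10.71 to 9.41 and 9.37. At 0g it was 7.69 and 7.71 untreated and 8.18 and 8.17 treated, so the treated groups still differed by gravity. The kininogens Kng1 and Kng2, precursors of bradykinin, had interactions of 1.97 ± 0.20 and 1.64 ± 0.19. The near-identical copies could share signal, and the second Kng1 probe did not pass.

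A second form was a rise at 0g with little difference at 1g. Rbm3, a cold-inducible RNA-binding protein, had signals of 9.87 and 10.11 untreated and 11.68 and 11.83 treated at 0g, and 11.80, 11.89, 12.03 and 11.89 in the 1g arrays. Only the untreated 0g arrays were low. The interaction was 1.66 ± 0.17 (adjusted p = 0.000251), from 1.76 at 0g and 0.11 at 1g. Olfml1, a secreted olfactomedin-domain protein, was at 5.32 and 5.78 untreated and 7.72 and 7.77 treated at 0g, and between 9.07 and 9.19 on all 1g arrays. Its interaction of 2.15 ± 0.20 (adjusted p = 0.000128) came from a rise of 2.19 at 0g that left treated 0g cultures still below 1g.

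Sfrp2, a secreted Wnt antagonist, was at 6.59 and 6.43 untreated and 8.11 and 8.05 treated at 0g, and at 10.77 and 11.10 untreated and 10.27 and 10.47 treated at 1g. The 0g groups were apart from each other and below both 1g groups. Its interaction was 2.13 ± 0.25 (adjusted p = 0.000551). Fmo1, a drug-oxidizing enzyme, Ifi27l2a, an interferon-inducible protein, Atp12a, a proton pump subunit, and Tril, a Toll-like receptor accessory protein, completed the 12 largest with interactions of 1.79, 1.78, 1.69 and 1.60.

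Among the 12 largest negative interactions were growth factor, neuronal and stress genes that were highest in untreated 0g cultures. Prl2c4, a placental-type prolactin relative (proliferin), was at 13.02 and 12.87 untreated and 12.00 and 12.00 treated at 0g, and at 9.05 and 9.26 untreated and 10.28 and 10.08 treated at 1g. Treatment lowered it at 0g and raised it at 1g, without overlap between groups. The interaction was -1.98 ± 0.17 (adjusted p = 9.15e-05), and that of its near-identical copy Prl2c3, which may share the signal, was -1.95 ± 0.15.

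Aqp5, a water channel, was at 11.34 and 11.11 untreated and 9.68 and 9.82 treated at 0g, and at 7.11 and 7.28 untreated and 7.71 and 7.63 treated at 1g. Its interaction was -1.94 ± 0.16 (adjusted p = 5.19e-05). Inhbb, a subunit of activins, was at 10.61 and 9.92 untreated and 9.37 and 9.28 treated at 0g, and at 6.93 and 7.08 untreated and 7.53 and 7.39 treated at 1g, an interaction of -1.40 ± 0.24 (adjusted p = 0.00794). In both genes the treated 0g level stayed well above 1g.

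Fosb and Bdnf were high in untreated 0g cultures alone. Fosb, an AP-1 subunit of the immediate early class, was at 9.45 and 8.84 untreated and 7.36 and 7.27 treated at 0g, and between 6.81 and 6.89 on the 1g arrays. Its interaction was -1.88 ± 0.24 (adjusted p = 0.000986), made up of -1.83 at 0g and 0.05 at 1g. Bdnf, a neurotrophin whose gene is a known cAMP target in neurons, was at 9.27 and 9.01 untreated and 7.83 and 7.81 treated at 0g, and between 7.35 and 7.51 at 1g. Its interaction was -1.43 ± 0.16 (adjusted p = 0.000403); its other probes were not detected in any group and did not pass. Stmn2, a microtubule regulator of neurons, had -1.47 ± 0.17, with a rise at 1g as well as a fall at 0g. The remaining genes of the 12 were Klk8 (-1.57), a secreted protease, Nkd2 (-1.27), a Wnt antagonist, and Scmh1 (-1.26), a Polycomb protein, together with the heat shock genes Hspa1a and Hspb1 described below.

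**Figure D2:**
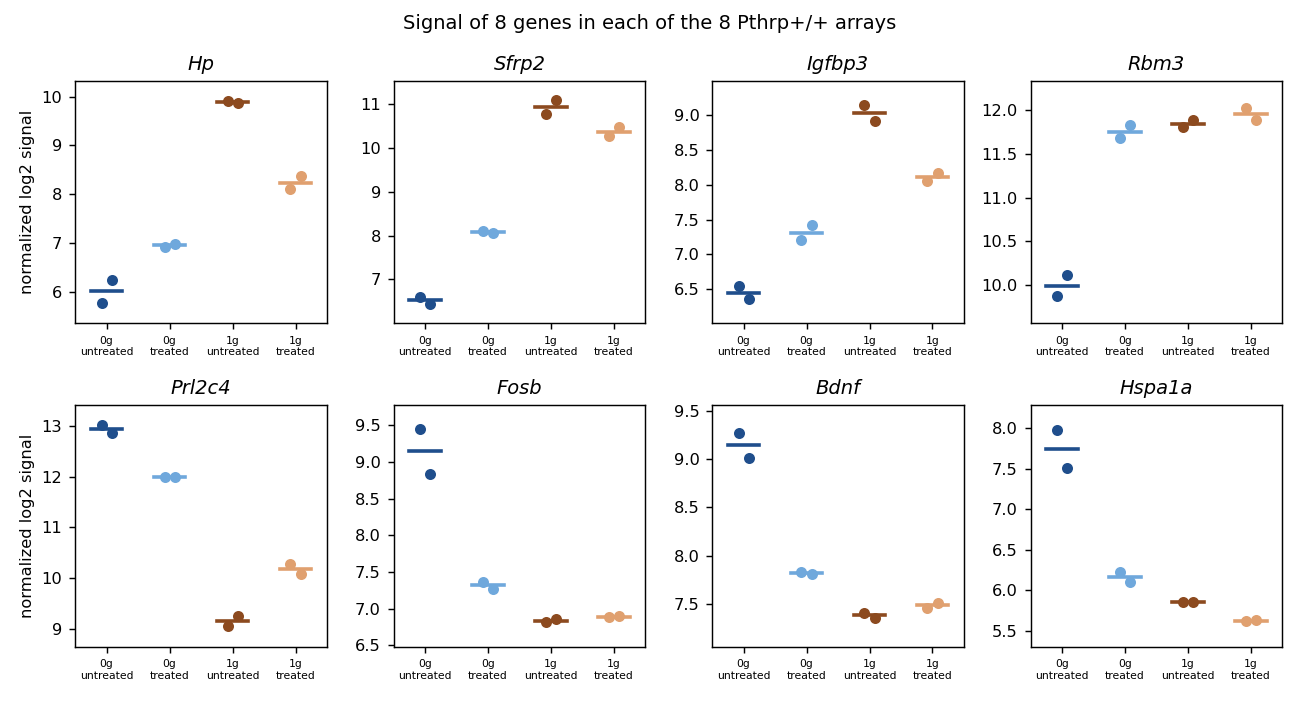
Log2 normalized signal of 8 genes on each of the 8 Pthrp+/+ arrays, grouped by gravity and treatment; points are arrays and lines are group means. Hp and Igfbp3 lie at 4 separate levels with the treated groups between the untreated ones, whereas Rbm3, Fosb, Bdnf and Hspa1a differ mainly in the untreated 0g arrays.

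All 24 largest interactions passed in each of 23 alternative analyses. For 12 of them the size was over 1.5 times smaller without background correction or on the authors' normalized values, down to 1.59 for Hp and 0.68 for Olfml1.

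Some genes that passed had a group without detection on either array and give only bounds. Lcn2, the siderophore-binding protein lipocalin 2, was not detected in either 0g group. At 1g it was at 6.96 and 7.06 untreated and 5.71 and 5.55 treated, so that its interaction of 1.25 rests on a fall of 1.38 at 1g. Wfdc18 was not detected in untreated 0g cultures and was at least 1.17-fold higher in treated ones (adjusted p = 0.0609 for treatment at 0g). Cbln1 was at least 1.17-fold higher (adjusted p = 0.111), on 1 of 2 treated arrays. Neither rise at 0g passed. At 1g, where both genes were detected on all arrays, treatment lowered Wfdc18 by 0.98 and Cbln1 by 0.93 (adjusted p = 0.000798 and 0.00716, limma). Edn2, an endothelin precursor, was at least 1.36-fold lower in treated than in untreated 0g cultures (adjusted p = 0.0153), and its interaction passed in 12 of 22 alternatives. Lor, loricrin of the cornified envelope, and Wnt4, a Wnt ligand, were not detected in either 1g group. Lor fell at 0g by 0.88, and its interaction passed in 10 of 22 alternatives. Wnt4 was at 5.84 and 5.48 untreated at 0g and was detected on 1 of 2 treated arrays, so that its fitted fall is not exact, and its interaction passed in 9 of 21 alternatives. Such bounds average each replicate's log2 values, with an undetected array set at the higher of its own signal and the lowest signal among probes detected on it. In all, 23 of the 358 genes had such a group, and 324 were detected on both arrays of all 4 groups.

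Cell division genes formed a group with higher interactions. Of 18 mitosis genes tested, 10 had a higher interaction and 0 a lower one, against 2.46% and 0.968% of all genes. The median interaction was 0.84 against -0.02 over all genes. Treatment raised 15 of the 18 at 0g and changed 0 at 1g, against 5.37% and 0.795% of all genes. Gravity lowered 17 in untreated cultures and 1 in treated ones, against 14.2% and 4.91%. These shares of all genes also stand beside the counts of the lists below. Mean log2 signals of the list were 8.06 and 8.14 untreated and 8.98 and 9.01 treated at 0g, and between 9.07 and 9.23 on the 1g arrays. Only the untreated 0g cultures were low.

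Nusap1, which bundles spindle microtubules, was at 8.24 and 8.31 untreated and 9.45 and 9.48 treated at 0g, and at 9.66, 9.62, 9.93 and 9.97 in the untreated and treated 1g arrays, an interaction of 0.88 ± 0.17 (adjusted p = 0.0163). Prc1, which organizes the spindle midzone, was at 10.71 and 10.69 untreated and 11.62 and 11.54 treated at 0g, and between 11.72 and 11.83 at 1g, an interaction of 0.84 ± 0.16 (adjusted p = 0.0144). In both the treated 0g arrays came close to the 1g arrays. Cenpa, the centromeric histone H3, had 0.84 ± 0.17 (adjusted p = 0.0163), and Birc5 (survivin) also passed. The adjusted p of these genes lay near the threshold, so the count of 10 fell when an array was left out. It was 0 and 1 without a treated 0g array, 1 and 4 without an untreated 1g array, 3 and 1 without a treated 1g array, 2 without the untreated 0g replicate 1 and 9 without the untreated 0g replicate 2. The list median was 0.58 to 0.87 over all alternatives.

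Replication genes moved with them, in counts that stand beside 2.46% of all genes for a higher interaction and 5.37% for a rise at 0g. Of 24 S phase genes, 6 had a higher interaction and 0 a lower one (2 to 7 higher when an array was left out), with a median of 0.48, and treatment raised 11 at 0g and 0 at 1g. Uhrf1, which maintains DNA methylation at replication forks, was at 9.75 and 9.86 untreated and 10.76 and 10.72 treated at 0g, and between 10.71 and 10.78 at 1g, an interaction of 0.89 (adjusted p = 0.00393). Mcm5, a subunit of the replicative helicase, was at 9.81 and 10.11 untreated and 10.84 and 10.87 treated at 0g, and between 10.89 and 10.93 at 1g, with 0.91 (adjusted p = 0.00751). For both, the treated 0g arrays lay next to the 1g arrays. Tyms, thymidylate synthase, and Tk1, thymidine kinase, had 0.75 and 1.08.

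Histone genes differed by type in their medians, although not every H2A gene went with its type. Interactions lay above 0 for 9 of 14 H2A genes, 0 of 11 H2B genes and 0 of 18 H1, H3 and H4 genes. Over all genes 2.46% had a higher interaction and 0.968% a lower one. Of 14 H2A genes, 7 had a higher interaction (4 to 8 when an array was left out) with a median of 1.01. Of 11 H2B genes 1 was lower (median -0.45; 0 to 1 when an array was left out), and of 18 H1, H3 and H4 genes 3 were lower (median -0.49; 0 to 2 lower when an array was left out). H2ac7 was at 10.38 and 10.77 untreated and 12.10 and 12.25 treated at 0g, and between 12.26 and 12.46 at 1g, an interaction of 1.45 ± 0.19 (adjusted p = 0.0016). H2ac11, H2ac15 and H2ac12 had 1.55, 1.23 and 1.20. H2bc6 had -0.76, H4c8 -0.78, H4c12 -0.78 and H3c4 -0.61. The medians of the 3 lists kept their signs in all alternatives. Histone genes are near-identical copies, so that probes cannot be assigned to single genes with certainty.

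Most promoters of the mitosis genes held a known cell cycle element. The cell cycle genes homology region (CHR), to which the DREAM and B-Myb complexes bind, was searched as the letters TTTGAA on both strands from 250 bases before to 50 after the start of each gene (RefSeq, GRCm38.p6), and a gene was counted when any of its promoters held it. It was present for 12 of the 15 mitosis genes with a promoter in the table (80.0%), against 14.4% of 8453 tested genes and 20.2% of all 27025 genes. The CCAAT box (CCAAT, both strands), which often lies upstream of a CHR, was present for 80.0% of them and 43.1% of tested genes. Among all genes with a higher interaction the CHR was present for 49 of 189 (25.9%), and among those with a lower one for 9 of 81 (11.1%). A match is a description of the letters and not evidence of binding. The 100 bases before the start are shown for 4 mitosis genes that had a higher interaction, to place the element near the start; capitals mark TTTGAA or, where it lies on the other strand, its reverse complement, and these genes were chosen after their values were seen. The signals of Cdc20, the activator of the anaphase-promoting complex, were 9.25 and 9.67 untreated and 10.70 and 10.76 treated at 0g, and between 10.55 and 10.89 at 1g, an interaction of 0.98 (adjusted p = 0.0357), and the spindle motors Kif11 and Kif22 and the topoisomerase Top2a had 0.81, 1.03 and 0.90. The windows were chr4:118437344-118437443 (minus strand) for Cdc20, chr19:37376282-37376381 (plus strand) for Kif11, chr7:127042421-127042520 (minus strand) for Kif22 and chr11:99024190-99024289 (minus strand) for Top2a, and the element began 18, 19, 17 and 23 bases before the start.
Cdc20: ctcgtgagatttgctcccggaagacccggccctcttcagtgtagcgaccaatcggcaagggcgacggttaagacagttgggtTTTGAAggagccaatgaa
Kif11: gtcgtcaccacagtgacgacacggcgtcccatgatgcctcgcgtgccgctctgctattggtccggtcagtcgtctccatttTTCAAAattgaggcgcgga
Kif22: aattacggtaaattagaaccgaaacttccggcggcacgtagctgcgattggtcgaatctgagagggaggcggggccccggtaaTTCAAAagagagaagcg
Top2a: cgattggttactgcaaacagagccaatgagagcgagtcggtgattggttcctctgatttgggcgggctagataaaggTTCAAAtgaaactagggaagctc

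Macrophage genes formed another group with a higher interaction, which 2.46% of all genes had. Of 23 tested, 9 were higher (4 to 7 when an array was left out) and 0 lower, with a median of 0.49. Gravity lowered all 23 in untreated cultures and 11 in treated ones, against 14.2% and 4.91% of all genes. C1qa, a subunit of complement C1q made by macrophages, was at 8.02 and 8.08 untreated and 9.10 and 9.14 treated at 0g, and at 9.83 and 9.85 untreated and 9.46 and 9.57 treated at 1g. The treated 0g arrays lay between the others without overlap, and the interaction was 1.40 ± 0.16 (adjusted p = 0.00045).

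Mrc1, the mannose receptor, was at 8.85 and 8.73 untreated and 9.49 and 9.36 treated at 0g, and at 11.12 and 11.19 untreated and 10.24 and 10.24 treated at 1g, an interaction of 1.55 ± 0.22 (adjusted p = 0.00247) that came from both sides. Aif1 (Iba1), an actin-binding protein of macrophages, had 1.25 (adjusted p = 0.0262), and Coro1a, a coronin of blood cells, also passed. Outside the naming rule and chosen after their values were seen, Cx3cr1 (fractalkine receptor), Siglec1 (CD169), Btk (a tyrosine kinase of B and myeloid cells) and Fcgr1 (an Fc receptor) had interactions of 1.21, 1.20, 0.94 and 0.87. That they passed the test follows from this choice and adds nothing to the counts of the list. Their lowest values over the alternatives were 0.70, 0.21, 0.73 and 0.30. The summed linear signal of the 23 macrophage genes was 63200 and 61800 untreated and 78400 and 80300 treated at 0g, and 103000 and 106000 untreated and 95800 and 92800 treated at 1g. The sum thus had the order of the genes with a higher interaction, and its part in the results for the interferon, chemokine and complement genes described next was not tested.

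The listed interferon-stimulated genes were more often lowered by treatment at 1g than raised at 0g. Of 21 tested, 6 had a higher interaction (3 to 4 when an array was left out) with a median of 0.55. Over all genes 2.46% had a higher interaction. Treatment lowered 11 of the 21 at 1g and 2 at 0g, against 0.584% and 3.61% of all genes, and raised 1 at 0g, against 5.37%. Gravity lowered 17 in untreated and 0 in treated cultures, against 14.2% and 4.91% of all genes. Rsad2 (viperin), an antiviral enzyme, was at 7.99 and 8.22 untreated and 7.56 and 7.59 treated at 0g, and at 9.10 and 9.08 untreated and 7.65 and 7.63 treated at 1g. The 4 treated arrays lay together below all untreated ones. Its interaction of 0.92 ± 0.15 (adjusted p = 0.00486) came from -0.53 at 0g and -1.45 at 1g.

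Ifit3, which binds viral RNA, was at 11.16 and 11.07 untreated and 10.04 and 10.05 treated at 1g, and between 9.95 and 10.23 at 0g, an interaction of 0.85 (adjusted p = 0.0214). Its copy Ifit3b could share the signal. Cmpk2, a mitochondrial nucleotide kinase, had 1.20 (adjusted p = 0.0163), again with the untreated 1g arrays high at 7.44 and 7.57 and the other 6 between 6.27 and 6.68. Oas1g, an antiviral enzyme of a family of near-identical genes, had 1.03 (adjusted p = 0.0117). Ifi27l2a, named above and outside the list, had another form. Treatment raised it by 1.27 at 0g (adjusted p = 6.59e-05, limma), and its fall of 0.51 at 1g did not pass (adjusted p = 0.0827).

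Of 20 chemokine genes 3 had a higher interaction and 0 a lower one (median 0.44). Over all genes 2.46% had a higher interaction, a share that also stands beside the complement genes below. Cxcl12, which holds haematopoietic cells in the marrow niche, was, on its probe of smallest p, at 10.08 and 10.09 untreated and 10.65 and 10.75 treated at 0g, and at 12.50 and 12.23 untreated and 11.41 and 11.34 treated at 1g. Its 4 groups were apart, with the treated ones between, and the interaction passed on this and its other probes. The monocyte attractant Ccl12 was at 6.98 and 7.01 untreated and 7.49 and 7.60 treated at 0g and at 8.05 and 8.25 untreated and 7.28 and 7.25 treated at 1g, with an interaction of 1.43 (adjusted p = 0.000403), and the eosinophil attractant Ccl11 had 1.24. Of 6 complement genes 2 were higher (1 to 2 when an array was left out): Cfb (1.47, adjusted p = 0.00751), factor B of the alternative pathway, and C4b (1.12, adjusted p = 0.0233).

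Heat shock and immediate early genes went the other way. Over all genes 0.968% had a lower interaction, and treatment lowered 3.61% at 0g and 0.584% at 1g. Of 18 heat shock genes, 4 had a lower interaction (2 to 4 when an array was left out) and 0 a higher one, with a median of -0.39; treatment lowered 6 at 0g and 0 at 1g. Hspa1a, an inducible HSP70 with a near-identical copy in Hspa1b, was at 7.97 and 7.51 untreated and 6.22 and 6.11 treated at 0g, and at 5.86, 5.86, 5.63 and 5.63 in the untreated and treated 1g arrays. Only untreated 0g cultures were high, and the interaction was -1.35 ± 0.23 (adjusted p = 0.00751).

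Hspb1 (HSP27), a small chaperone, was at 11.15 and 11.21 untreated and 10.16 and 10.10 treated at 0g, and at 9.36 and 9.46 untreated and 9.57 and 9.81 treated at 1g, an interaction of -1.32 ± 0.20 (adjusted p = 0.00306). The small chaperones Cryab and Hspb8 had -0.86 (adjusted p = 0.0173) and -0.73 (adjusted p = 0.0196). The heat shock element, the binding sequence of heat shock factors, was searched on both strands as 3 GAA units in alternating direction with 2 free bases between neighbours. It was present in the promoters of 4 of 15 genes of this list (26.7%) and of 0.521% of tested genes. Among all genes with a lower interaction it was present for 0 of 81, and among those with a higher one for 2 of 189 (1.06%).

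Of 23 immediate early genes, 4 had a lower interaction (2 to 3 when an array was left out), with a median of -0.45; treatment lowered 9 at 0g and changed 0 at 1g. Besides Fosb these were Dusp1, a phosphatase of MAP kinases, Zfp36 (tristetraprolin), which destabilizes cytokine transcripts, and Klf4, a zinc finger factor. Dusp1 was at 12.61 and 12.57 untreated and 11.90 and 11.88 treated at 0g, and at 12.28, 12.28, 12.40 and 12.38 in the untreated and treated 1g arrays, so that treated 0g cultures were the lowest group. Its interaction was -0.81 ± 0.14 (adjusted p = 0.00739). Zfp36 was also lowest there, at 10.31 and 10.23 against 10.85 to 11.10 elsewhere, with -0.64 (adjusted p = 0.0253). Klf4 had -0.69 (adjusted p = 0.0485). Fos itself, chosen after its values were seen, fell at 0g by 0.68, from 12.21 and 12.04 to 11.37 and 11.51, and its interaction of -0.69 did not pass (adjusted p = 0.125). The AP-1 site (TGANTCA, which reads alike on both strands) was present for 14 of 81 genes with a lower interaction (17.3%), 6.35% of those with a higher one and 7.16% of tested genes.

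Among genes known to answer PTH1R and cAMP, 2 of 24 had a lower interaction (2 in every leave-one-array-out fit), against 0.968% of all genes, and 0 a higher one, with a median of -0.21. Treatment lowered 6 of the 24 at 0g, against 3.61% of all genes, and changed 0 at 1g. Nr4a2 (Nurr1), an orphan nuclear receptor induced early by parathyroid hormone, was at 6.39 and 6.31 untreated and 5.79 and 5.77 treated at 0g, and at 5.89 and 5.89 untreated and 6.25 and 6.48 treated at 1g. The treated arrays were the low ones at 0g and the high ones at 1g. Its interaction was -1.05 ± 0.15 (adjusted p = 0.00239), and it ranged from -1.17 to -0.22 over the alternatives. Dusp1, above, was the other gene of the list. Adamts1, an aggrecan-cleaving protease (0.78, adjusted p = 0.0776), and Mmp13, the collagenase of osteoblasts (0.59, adjusted p = 0.117), did not pass.

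**Figure D3:**
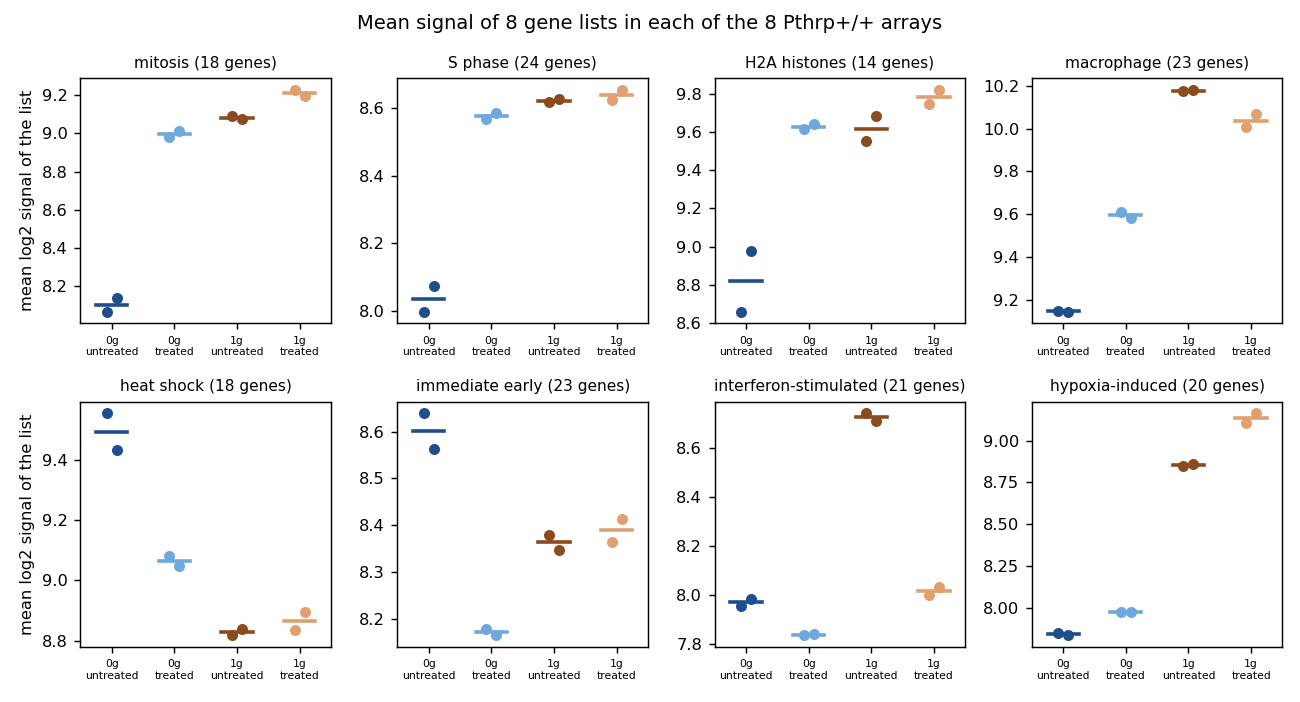
Mean log2 normalized signal of 8 gene lists on each of the 8 Pthrp+/+ arrays. The mitosis list is low only in untreated 0g cultures (8.06 and 8.14 against 8.98 to 9.23 elsewhere), the interferon list is high only in untreated 1g cultures (8.74 and 8.71), and the hypoxia list is lower at 0g (7.83 to 7.97) than at 1g (8.85 to 9.16) in treated and untreated cultures.

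Of 16 osteoblast genes, 1 was higher and 1 lower, against 3.43% of all genes in either direction (each 0 to 1 when an array was left out), with a median of 0.04 that changed sign when either the treated 0g replicate 1, the untreated 1g replicate 1 or the untreated 0g replicate 2 was left out (lowest -0.03). Ibsp (bone sialoprotein) had 0.91 (adjusted p = 0.0436) and passed in 7 of 21 alternatives; it was detected on 1 of 2 untreated 0g arrays. Dlx3, a homeobox factor, had -0.70 (adjusted p = 0.0315), from 6.93 and 6.70 untreated to 6.21 and 6.23 treated at 0g, and passed in 12 of 23 alternatives. Among 6 genes that couple osteoblasts to osteoclasts, Tnfrsf11b (osteoprotegerin), the decoy receptor of RANKL, was lower. It was at 11.24 and 10.89 untreated and 9.98 and 9.93 treated at 0g, and between 9.67 and 9.89 at 1g, an interaction of -0.96 (adjusted p = 0.00921). Treatment at 0g brought it near the 1g level. Tnfsf11 (RANKL) had an interaction of 0.14 (adjusted p = 0.93) and was chosen after its values were seen.

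Matrix genes went in both directions. Of 17 collagen genes 2 were higher (1 to 2 when an array was left out) and 1 lower (0 to 1). Of 10 small leucine-rich proteoglycans 3 were higher (2 in each such fit) and 2 lower (0 to 2), and of 21 matrix glycoproteins 5 (2 to 5 when an array was left out) and 0. Col14a1, a fibril-associated collagen, was at 6.41 and 6.52 untreated and 7.58 and 7.63 treated at 0g, and at 8.61 and 8.33 untreated and 8.02 and 8.07 treated at 1g, an interaction of 1.56 (adjusted p = 0.000403). Nid2, a basement membrane nidogen, was at 8.00 and 7.93 untreated and 8.88 and 8.81 treated at 0g, and at 10.12 and 10.06 untreated and 9.72 and 9.64 treated at 1g, with 1.28 (adjusted p = 0.000441). In both the treated 0g arrays stayed below all 1g arrays. The fibril-binding proteoglycans Lum and Dcn had 1.04 (adjusted p = 0.00578) and 0.93 (adjusted p = 0.011), from rises of 1.08 and 0.80 at 0g. The fibre proteins Mfap4 and Mfap2 had 1.38 and 0.93, and Fbln1 (fibulin 1) had 1.10 on a dimmer probe and 0.64 (adjusted p = 0.0872) on its probe of highest mean. Col7a1, the anchoring fibril collagen, had -0.82, and the proteoglycan Prelp -0.69. Mmps and Timps had a median interaction of 0.22, with 11 of 16 above 0, but the members that passed were lower. The matrix protease inhibitor Timp3, among 16 Mmps and Timps of which 2 were lower (0 to 2 when an array was left out), was at 13.57 and 13.37 untreated and 12.63 and 12.53 treated at 0g and between 11.93 and 12.08 at 1g, with -0.81 (adjusted p = 0.012).

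Members of 3 growth factor pathways passed, each beside 3.43% of all genes. Of 25 Wnt pathway genes 3 were higher (2 to 4 when an array was left out) and 2 lower (1 to 2), with a median of 0.06. Besides Sfrp2 and Nkd2, Sfrp1, another secreted antagonist, was at 9.06 and 9.05 untreated and 9.21 and 9.22 treated at 0g, and at 10.65 and 10.64 untreated and 9.85 and 9.73 treated at 1g. Its interaction of 1.02 (adjusted p = 0.00227) came from a fall of 0.86 at 1g. Rspo3, an activator of Wnt signalling, had 1.14 (adjusted p = 0.0177).

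Of 12 IGF genes 3 were higher, in every leave-one-array-out fit as well: Igfbp3, Igf2 and Igfbp5. Igf2, the fetal growth factor, was at 12.70 and 12.61 untreated and 13.36 and 13.40 treated at 0g, and at 14.76 and 14.76 untreated and 14.46 and 14.40 treated at 1g, an interaction of 1.05 ± 0.14 (adjusted p = 0.00165). Igfbp5, the main binding protein of bone, was at 10.16 and 9.85 untreated and 11.02 and 11.15 treated at 0g and between 12.59 and 12.82 at 1g, with 1.23 (adjusted p = 0.00247). Of 17 BMP and activin genes 1 was higher and 3 lower (median -0.42). Bmp4, an osteogenic ligand, was at 7.39 and 7.49 untreated and 7.81 and 7.85 treated at 0g, and at 9.94 and 9.98 untreated and 9.09 and 9.12 treated at 1g, with 1.24 (adjusted p = 0.000471). Its antagonist Grem1 had -1.15 (adjusted p = 0.0133) and the activin subunit Inhba, which fell by 0.78 at 0g, had -0.89 (adjusted p = 0.00546).

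In other lists, the counts of lower members stand beside 0.968% of all genes. Of 5 targets of the aryl hydrocarbon receptor, its repressor Ahrr (-0.97, adjusted p = 0.00581) and the aldehyde dehydrogenase Aldh3a1 were lower (2 of 5). Of 18 ATF4 targets 3 were lower (1 to 3 when an array was left out), led by Chac1 (-0.95, adjusted p = 0.00714), which degrades glutathione. Of 20 p53 targets Sesn1 alone was higher (0.75), although the list median was -0.28 and only 4 of the 20 lay above 0. Treatment at 0g lowered 6 of the p53 targets and raised 1, against 3.61% and 5.37% of all genes. Gravity raised 13 of them in untreated and 8 in treated cultures, against 14.3% and 3.86% of all genes. Hypoxia-induced genes had 1 lower member of 20, on a Car9 probe detected on 1 of the 4 arrays at 0g. Treatment left the gravity difference of that list in place: gravity lowered 15 of 20 in untreated and 17 of 20 in treated cultures. The same held for 13 glycolysis genes, of which gravity lowered 9 untreated and 10 treated and 0 had an interaction. Of 58 cytosolic ribosomal protein genes and 74 genes of oxidative phosphorylation 0 passed (limma), and their medians were 0.05 and -0.003. In all, 107 of the 358 genes belonged to a list and 251 to none. The plot of interactions by list shows these groups side by side.

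**Figure D4:**
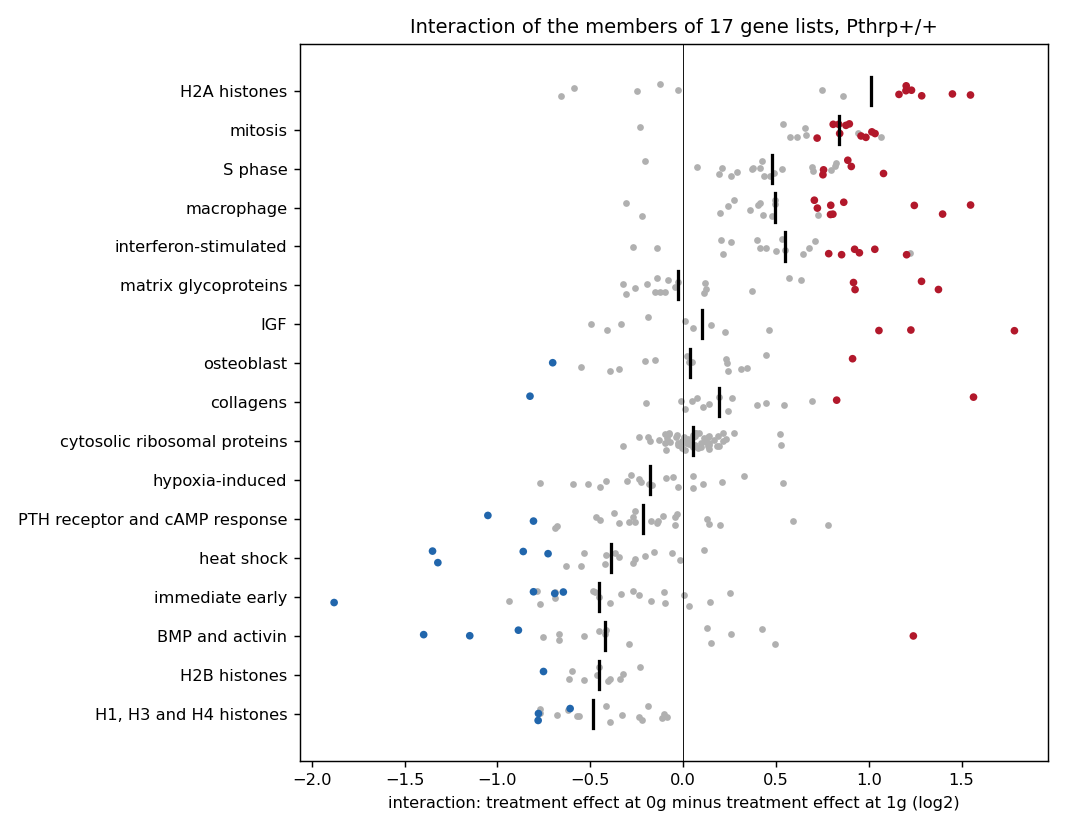
Interaction (log2) of each tested gene in 17 lists, 1 point per gene (its probe of highest mean); red and blue points pass the test above and below 0, grey points do not, and black bars are list medians. The mitosis and H2A lists have the medians farthest above 0 (0.84 and 1.01), and the heat shock and immediate early lists lie mainly below 0 (medians -0.39 and -0.45).

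The same contrast in Pthrp-/- TOs, which differ from the cells above by lacking the Pthrp gene, called 80 genes (0.766%), 49 higher (0.469%) and 31 lower (0.297%). Of the 358 genes, 27 also passed in Pthrp-/-. The difference between the genotypes contains the Pthrp+/+ interaction that chose the 358 genes, which favours an overlap with them. It passed for 144 genes (1.38%), 82 above 0 (0.786%) and 62 below (0.594%), and 98 of these were among the 358. Rbm3 was one of them, with an interaction of -1.61 in Pthrp-/- against 1.66 in Pthrp+/+ (adjusted p = 3.41e-05 for the difference as labelled, 0.96 with the Pthrp-/- sign turned). Prl2c4 (1.26 in Pthrp-/- against -1.98) likewise had the opposite sign as labelled (adjusted p for the difference with the sign turned, 0.204). Olfml1 (1.40 against 2.15) and Tril (1.46 against 1.60) had the same sign as labelled, and with the sign turned their differences passed (adjusted p = 6.86e-05 and 0.00276). For the 18 mitosis genes the median interaction in Pthrp-/- was 0.04, and for the 14 H2A genes 0.12.

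How the arrays of each genotype are labelled for gravity decides some of these differences, such as those of the 4 genes above. Others passed both as labelled and with the Pthrp-/- sign turned, such as Hp (adjusted p = 0.00185 and 0.000724, limma) and Aqp5 (0.000958 and 0.003). The gravity effects of untreated cultures, which share no array between genotypes, had a correlation of -0.36 over 10438 genes, which are not independent replicates. Of 2759 genes called for gravity in untreated Pthrp+/+ cultures on their probe of highest mean, 1893 had the opposite sign in Pthrp-/-. A genotype effect and exchanged labels cannot be told apart here. The correlation also does not say in which genotype labels would be exchanged. An exchange in Pthrp+/+ would turn the sign of every Pthrp+/+ interaction and gravity effect given above, and would swap the treatment effects at 0g and 1g. With the sign of the Pthrp-/- interaction turned, the difference passed for 188 genes (1.8%), with 1.26% above and 0.546% below 0. The interactions in the 2 genotypes had a correlation of 0.027 over all genes, as the plot of both genotypes shows for the called genes.

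**Figure D5:**
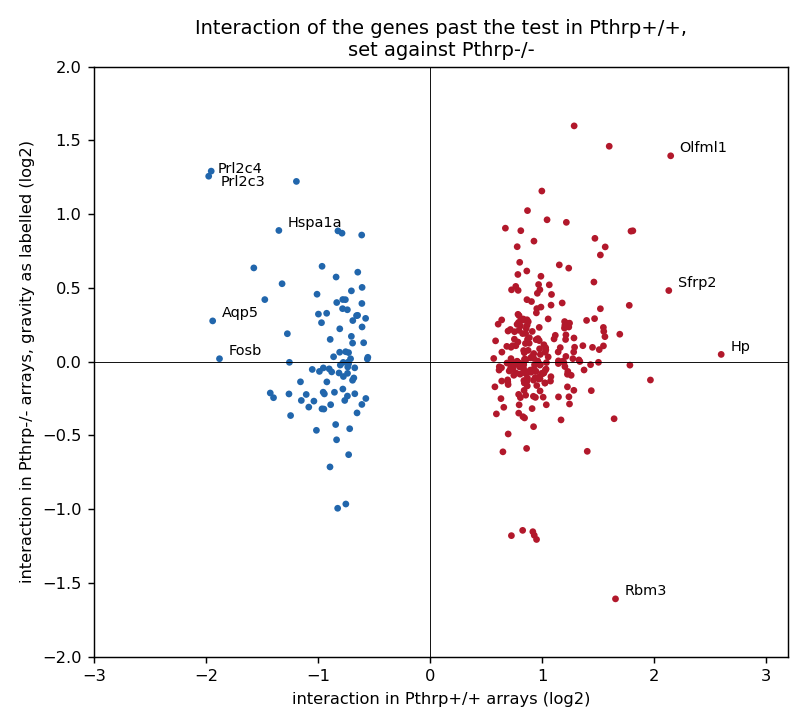
Interaction (log2) in Pthrp+/+ on the horizontal axis and in Pthrp-/- on the vertical axis, with gravity as labelled, for the 331 genes whose probe of highest mean passed in Pthrp+/+. The points lie left and right by choice and scatter around 0 vertically; 149 of 331 have opposite signs.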

How the data were processed

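RNA from 16 TO cultures had been measured on bead arrays of the type Illumina Mouse Ref-8 v2.0. The authors deposited non-normalized bead intensity values for 25697 probes with, per the file headers, a detection p-value for each, and log2 values that the authors had normalized with the lumi package (version not given in the sources used here). The deposited intensities were background-corrected against the negative controls as inferred from the detection p-values, quantile-normalized and log2-transformed after an offset of 16 (neqc, limma 3.58.1, R 4.3.3). The log2 values of the authors served as an alternative. Gene names came from GEO's platform annotation, updated through gene numbers: 23978 probes had 1 symbol, 0 had several and 1719 had none, and 17 of the 420 probes past the threshold were unnamed.

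Probes with a detection p under 0.05 on at least 2 arrays were kept. All 16 arrays were fitted in 1 model with a mean for each of 8 groups (8 residual and 4.98 prior degrees of freedom), and contrasts were tested with limma's empirical Bayes test. The study's own methods name the Wright and Simon model, which was run as an alternative. Where a gene has several probes, values are those of the probe of highest mean unless said, except that list members were chosen by their smallest p. Genes named were Pth1r and Pthlh, the 12 largest interactions in each direction among genes detected on all 8 arrays whose treatment differences did not overlap, the 3 largest in each direction with an undetected group, and up to 4 members of each list with the smallest p. The members and the 52 gene lists were chosen with earlier results of these data known. Alternatives changed the background correction, normalization, filter, samples in the fit, test, probes per gene, threshold, replicate block and values, and left out each array. The scripts were tested on simulated data. The number of arrays limits the precision. Figures were drawn with matplotlib 3.10.9 and tables read with pandas 2.3.3.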

Additional observations from a re-analysis of the deposited data

Results flagged for a closer look

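A difference between groups, shown by a test of the difference itself, marked 3 results. The effect of PTHrP1-36 differed between 0g and 1g in Pthrp+/+ TOs for 257 genes in the upward and 101 in the downward direction (limma, adjusted p under 0.05). The size of that interaction differed between Pthrp+/+ and Pthrp-/- TOs for 144 genes, with gravity as labelled in both genotypes. Groups of 2 arrays are too small to test for an outlying array.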

How the results depend on the processing

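Values in brackets are those of the main analysis. Without background correction 156 genes had a lower interaction (101), 183 passed for treatment at 1g (83) and 281 for the genotype difference (144). On the authors' normalized values 427 genes were higher (257) and 210 lower, 276 passed for treatment at 1g, 158 for the interaction in Pthrp-/- (80) and 433 for the genotype difference. For treatment at 1g, 54 genes passed with the Pthrp+/+ arrays alone in the fit, 128 with a variance trend and robust estimation, and 374 with array weights. Array weights also called 735 genes for treatment at 0g (938), and for gravity 2400 in untreated cultures (2971) and 2232 in treated ones (915). Requiring a 2-fold change as well left 98 higher and 25 lower interactions, 84 genes for treatment at 0g (938), 19 at 1g, 624 for gravity untreated (2971) and 161 treated. An unadjusted p with a 1.5-fold change gave 516, 301, 613, 142 and 1765 for the first 5 of these, and 63.2% of its interactions were higher against 71.8%. Cyclic loess called 321 genes, 276 of them among the 358, with 78.2% higher.

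When 1 array was left out, the remaining array of its group was assumed to vary like the others. Genes with a higher interaction then numbered 117 to 273 and those with a lower one 33 to 136. Treatment changed 276 to 1448 genes at 0g and 24 to 107 at 1g, and gravity 2068 to 2772 untreated and 434 to 1057 treated. The interaction in Pthrp-/- passed for 19 to 332 genes and the genotype difference for 53 to 351 (these leave-out fits were chosen after seeing the data). Same-numbered arrays deviated together only weakly (r of 0.042 to 0.139), so the numbers were not taken as pairs; with the replicate number as a block over all arrays the interaction passed for 331 genes, 315 of them among the 358, and with a block within genotype for 354, 320 of them among the 358. No interaction count or named gene that passed changed direction. With 2 arrays a group, interactions that missed the threshold are not shown to be absent, and dim probes give bounds only.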

Other observations

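Adipocyte and tendon genes also appeared among the interactions. Adipoq, the adipocyte hormone adiponectin, was not detected in either 0g group and was at 6.80 and 6.93 untreated and 5.73 and 5.77 treated at 1g, so that its interaction (1.08, adjusted p = 0.00398, limma) rests on a fall at 1g. Pparg, the nuclear receptor that drives adipocyte formation, had 0.86 (adjusted p = 0.0237), with signals of 7.87 and 7.58 untreated and 8.02 and 7.96 treated at 0g and 8.96 and 8.67 untreated and 8.28 and 8.15 treated at 1g. Only these 2 of 6 adipocyte genes passed, against 2.46% of all genes for a higher interaction.

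Scx (scleraxis), a transcription factor of tendon cells, was chosen after its values were seen. It was at 8.74 and 8.60 untreated and 7.73 and 7.66 treated at 0g, and between 6.28 and 6.72 on the 1g arrays, an interaction of -1.16 (adjusted p = 0.0264). Of 5 tendon genes 2 were lower and 1 higher, against 0.968% and 2.46% of all genes. Besides Scx, Mustn1 was lower on 1 of its 2 probes (-0.79, adjusted p = 0.00953). Kera, a corneal and tendon proteoglycan, was higher (1.23, adjusted p = 0.0368). Over the alternatives the interaction ranged from -1.32 to -0.67 for Scx and from 0.17 to 1.41 for Kera. Gdnf, a neurotrophic factor chosen in the same way, had -1.26 (adjusted p = 0.0182), with 8.16 and 8.48 untreated and 7.78 and 7.67 treated at 0g against 6.58 and 6.66 untreated and 7.55 and 7.02 treated at 1g; neither treatment effect passed on its own.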
